A study of Mus musculus with 77 samples.

Results

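The potassium channel family was taken as every gene whose symbol begins with Kcn followed by another letter, leaving out Kcnj10, in each of the 6 deposited count tables. The rule used symbols and no measured value, and it found 88 members among the 18104 genes listed in all. By symbol, 29 members are pore subunits of voltage-gated (Kv) channels, 10 are silent Kv subunits and 12 are Kv accessory subunits. A group of 12 is called channels opened by calcium or sodium below, and Kcnu1 is among them by symbol alone. Of the others 12 are inward rectifiers, 12 are two-pore channels and 1, Kcnq1ot1, is a non-coding RNA. All 88 are listed for the naive IP, 83 are listed for the naive input and 85 for the naive supernatant. The injury tables list 57 members for the Isl1 IP, 63 for the Isl1 input and 40 for the Dhh IP.

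The study pulled down ribosomes from mouse dorsal root ganglia (DRG) with the RiboTag allele, which puts an HA tag on the ribosomal protein Rpl22 in cells that carry Cre, and sequenced the RNA of the pull-down (IP), of the tissue lysate (input) and of what stayed behind (supernatant). Naive adult male mice of 5 Cre lines gave 3 libraries of each fraction, except for the Dhh IP, which had 2. Lumbar ganglia of the Isl1 and Dhh lines were also collected at 4, 12 and 24 h after sciatic nerve injury, with naive ganglia as the only control and no sham group labelled. Isl1 and Dhh IP were sequenced there in 3 libraries a time, with 2 for the Dhh IP at 24 h, and the Isl1 input in 3 naive libraries and 2 at each later time.

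Each Cre allele was heterozygous. Isl1, Runx3 and Dhh animals were of the ICR strain and homozygous for RiboTag, PGK animals were C57BL/6 and homozygous, and Adv animals were C57BL/6 and heterozygous. The labels give sensory neurons as the tagged cells of the Adv and Isl1 lines, proprioceptive neurons for Runx3, glia for Dhh and all cells of the tissue for PGK, a ubiquitous driver. The Dhh samples of the injury series are labelled sensory neurons as well, against the driver and the markers given below. Each line is limited by where its driver was active, since a cell that once expressed Cre keeps the tag. The labels do not say that replicates are separate animals, so p-values measure only the spread between these samples, which may be technical.

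Potassium channels let potassium leave the cell, which holds the resting potential and ends each action potential. In myelinated axons, Shaker-type Kv channels lie under the myelin beside the node, Shaw-type channels allow rapid firing, and A-type channels and the M current set the threshold and spacing of spikes. Glia use inward rectifiers, two-pore leak channels and calcium-activated channels to set a strongly negative resting potential and to move potassium and water.

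Libraries held 29710143 to 54088821 counts in genes, and levels are given as counts scaled to that total (CPM, counts scaled to a total of 1e6), or divided by transcript length as well (FPKM) where genes are compared with each other. The markers followed the lines. Summed over 12 sensory neuron genes, the Isl1 IP held 34724 to 37048 CPM and the Dhh IP 1251 to 1841 CPM, while 8 satellite glia genes summed to 439 to 512 and 51143 to 70446 CPM and 10 genes of myelinating Schwann cells to 881 to 1045 and 44432 to 45279 CPM. In the injury series, whose tables were made separately, the naive Dhh IP held 1051 to 1259 CPM of the neuronal list and 14777 to 17781 CPM of the satellite glia list. In bulk samples like these, fewer cells of a type and less RNA per cell cannot be told apart.

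Some members varied far more between replicate libraries than the rest. Among the 52 members tested in the naive IP, the median ratio of the highest to the lowest library lay between 1.31 and 1.61 over the 5 lines. Kcnip2, a calcium-binding partner of A-type channels, and Kcnd1, an A-type pore subunit, were singled out after their values were seen. Kcnd1 measured 61.4, 10.8 and 42.0 CPM in the Adv IP libraries, 97.0, 6.45 and 90.4 CPM in PGK and 61.5, 7.35 and 33.0 CPM in Runx3. The second library was the lowest in each of these lines. In the Isl1 IP, Kcnd1 measured 41.4, 144 and 109 CPM, with the first library lowest, and in the Adv input 34.9, 11.6 and 6.53 CPM, with the first library highest. The highest library of the PGK IP exceeded the lowest 19.6-fold for Kcnip2 and 15.1-fold for Kcnd1. Lysates and pull-downs both showed the spread, and both members carry large errors in the comparisons of naive lines below.

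**Figure D1:**
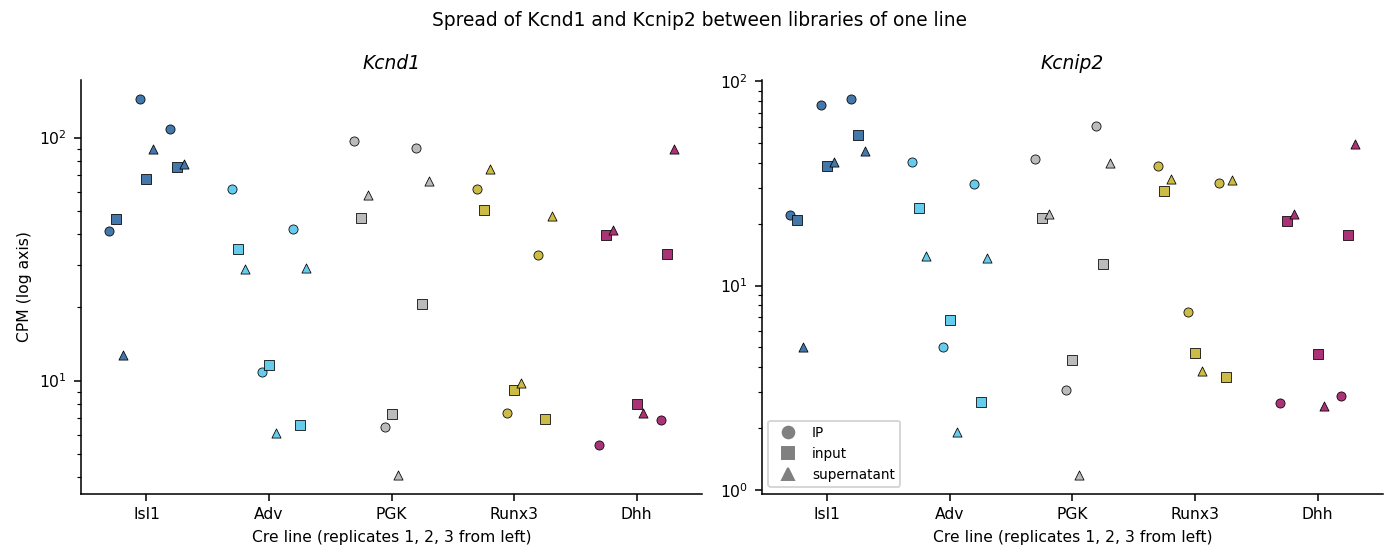
CPM on a log axis of Kcnd1 and Kcnip2 in each naive library, by line, fraction (IP, input, supernatant) and replicate. In the PGK IP the highest library of Kcnip2 stands 19.6-fold above the lowest, and Kcnd1 runs from 6.45 to 97.0 CPM.

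In the comparison of naive lines, the neuronal pull-downs held more potassium channel RNA as a sum than the glial one. Summed over the members, the Isl1 IP held 5218 ± 1088 CPM (SD, n = 3), the Adv IP 4255 ± 623 CPM (SD, n = 3), the PGK IP 4309.5 ± 782 CPM (SD, n = 3), the Runx3 IP 5720.2 ± 942 CPM (SD, n = 3) and the Dhh IP 2664 ± 259.9 CPM (SD, n = 2). The injury series differed in part. There Kcna1 held 1460 CPM in the naive Dhh IP, 35.4% of the summed member CPM, and 3937 CPM at 12 h, 65.6%. Kcnab2 held 1233.5 CPM in the naive Isl1 IP, 20.2% of the sum, and 1238 CPM at 12 h, 20.6%. By these shares the Dhh sum was lower than the Isl1 sum in naive ganglia and close to it at 12 h. In the IP of the naive lines, above 1 FPKM stood 51 members in Isl1, 49 in Adv, 52 in PGK, 40 in Runx3 and 34 in Dhh. Of the 88 members, 25 exceeded 1 FPKM in every line and 31 in none. Kcnq1ot1 stayed at or under 0.0442 FPKM in each line. Kcnh8, an ELK-type pore subunit, Kcnj16 and Kcnk5 exceeded 1 FPKM in Dhh but in neither Isl1, Adv nor Runx3, and Kcnd2, an A-type pore subunit, and Kcnj9, a G protein-gated inward rectifier, in Runx3 alone.

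The most abundant member per length was Kcnab2, a cytoplasmic beta subunit of Shaker-type channels, in the naive IP of the Isl1, Adv, PGK and Runx3 lines. It reached 287 ± 64.2 FPKM (SD, n = 3) in Isl1 and 373 ± 77.5 FPKM (SD, n = 3) in Runx3 against 20.3 ± 5.47 FPKM (SD, n = 2) in Dhh. Next in the Isl1 IP came the calcium-binding Kv partners Kcnip3 and Kcnip4, at 142 ± 15.3 FPKM (SD, n = 3) and 135 ± 28.5 FPKM (SD, n = 3), whose order lies within their spread. In the naive Isl1 IP of the injury series the order differed, with Kcnip2 first at 339 ± 10.2 FPKM (SD, n = 3) and Kcnab2 next at 315 ± 10.9 FPKM (SD, n = 3). That rank rests on the transcript length used, 693 bases for Kcnip2 and 3922 for Kcnab2. Without division by length, Kcnip2 held 234.7 CPM there and Kcnab2 1233.5 CPM. The Dhh IP of the 5 lines was led by a different pair. Kcnn4, the intermediate-conductance channel opened by calcium, reached 152 ± 6.12 FPKM (SD, n = 2) and Kcna1, a Shaker-type pore subunit, 152 ± 23.2 FPKM (SD, n = 2), with no difference beyond their spread, and Kcna6, another Shaker-type subunit, followed at 76.0 ± 5.20 FPKM (SD, n = 2). That order did not hold in the naive Dhh IP of the injury series. There Kcna1 came first at 362 ± 63.9 FPKM (SD, n = 3) and Kcnj16, an inward rectifier, next at 104 ± 17.4 FPKM (SD, n = 3), while Kcnn4 stood at 52.9 ± 6.60 FPKM (SD, n = 3). In Runx3 the second place went to Kcna1 at 187 ± 12.6 FPKM (SD, n = 3), followed by Kcnk1, a two-pore leak channel, at 143 ± 61.1 FPKM (SD, n = 3), and Kcnh2, the ERG channel, at 112 ± 6.49 FPKM (SD, n = 3).

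Whole subfamilies differed in level as well. Silent Kv subunits, which open no pore alone and modify other Kv channels, summed to 267 ± 79.5 CPM (SD, n = 3) in the Isl1 IP and 17.2 ± 5.40 CPM (SD, n = 2) in the Dhh IP. Accessory subunits summed to 2112 ± 414 CPM (SD, n = 3) and 196 ± 33.0 CPM (SD, n = 2). Channels opened by calcium or sodium were lower in the Runx3 IP, at 108 ± 11.0 CPM (SD, n = 3), than in the Isl1 IP, at 389 ± 41.3 CPM (SD, n = 3), with no overlap of their libraries. These sums weight abundant members and were not tested.

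**Figure D2:**
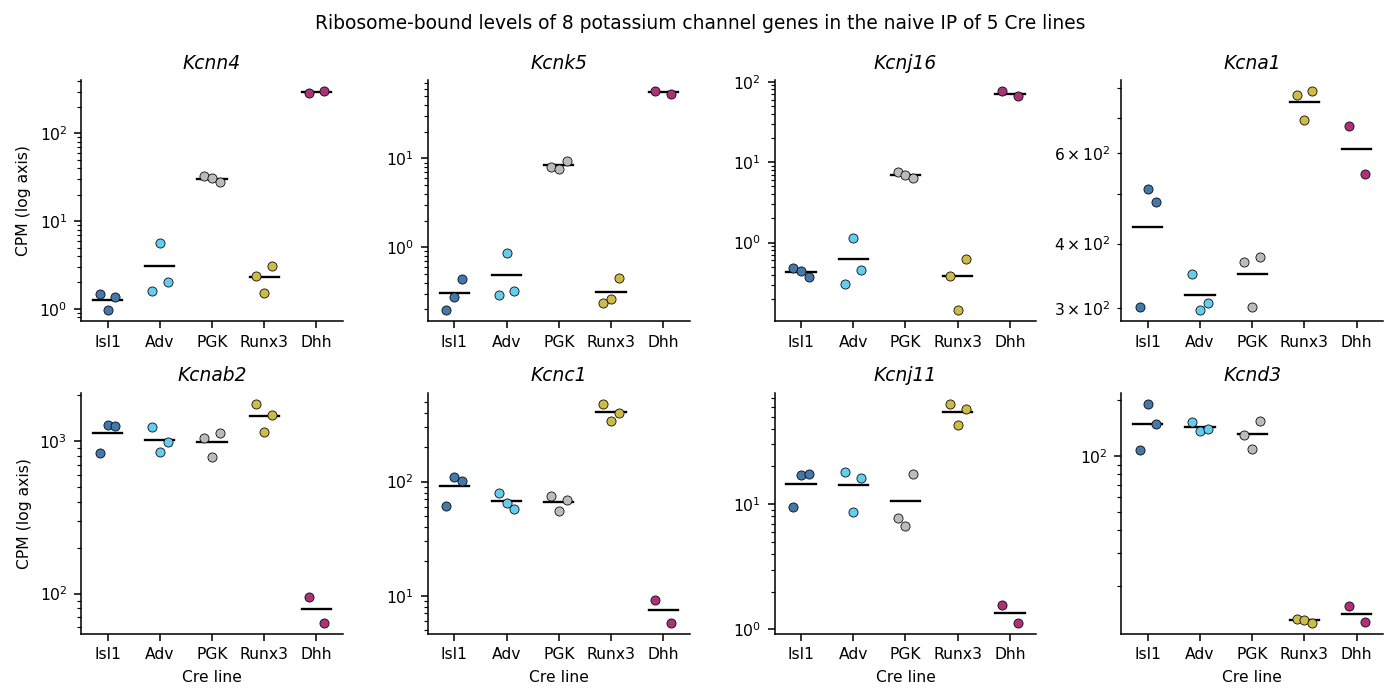
CPM on a log axis of 8 members in the naive IP of the Isl1, Adv, PGK, Runx3 and Dhh lines, a point for each library and a bar at the group mean. Kcnn4, Kcnk5 and Kcnj16 are highest in Dhh, Kcnc1 and Kcnj11 highest in Runx3, and Kcnd3 lies at 108 to 192 CPM in Isl1 and at 12.7 to 13.3 CPM in Runx3.

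The first comparison asked which members differ between ribosomes of glia and of sensory neurons. Genes entered a test when their mean over all libraries of the fit exceeded 1 FPKM, which 52 of the 88 members did, and since that mean can be carried by a single line, a member could pass through the line in which it was high. Tested were 17 of 29 Kv pore subunits, 6 of 10 silent and 8 of 12 accessory subunits, 9 of 12 members opened by calcium or sodium, 4 of 12 inward rectifiers and 8 of 12 two-pore channels. The 36 members left out are described by level only, among them Kcnq3, an M-type subunit at 0.232 ± 0.0603 FPKM (SD, n = 3) in Isl1, Kcnt2, a sodium-activated channel at 0.860 ± 0.227 FPKM (SD, n = 3), and Kcnj8, a pore of vascular ATP-sensitive channels, which stood at 0.926 ± 0.169 FPKM (SD, n = 3) in PGK and 0.0154 ± 0.00612 FPKM (SD, n = 3) in Isl1. Between the Dhh and the Isl1 IP, 45 of the 52 were called at an adjusted p under 0.1, with 85.0% of all genes tested called. Only 9 were higher in Dhh, where 43.7% of all genes were, and 36 were lower, where 41.3% of all genes were. The median log2 change of the members was -3.10, beside 0.05 for all genes.

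The 3 largest rises came from 3 subfamilies, and these genes are called the Dhh-enriched members here. Kcnn4 measured 1.46, 0.961 and 1.36 CPM in the Isl1 IP and 287 and 303 CPM in the Dhh IP, a log2 change of 8.03 ± 0.53 (SE, adjusted p = 3.87e-08). Kcnk5, a two-pore channel that responds to pH, measured 0.195, 0.277 and 0.435 CPM in Isl1 and 57.2 and 53.7 CPM in Dhh, a log2 change of 7.66 ± 0.45 (SE, adjusted p = 1.5e-08). Kcnj16, an inward rectifier subunit that forms pH-sensitive channels with related subunits, measured 0.488, 0.444 and 0.378 CPM in Isl1 and 76.1 and 66.1 CPM in Dhh, a log2 change of 7.50 ± 0.52 (SE, adjusted p = 5.46e-08). In all 3 the neuronal libraries lay near or under 1 CPM and no Dhh library came close to them.

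The bases upstream of the start of Kcnn4 and Kcnk5 are shown because these members separated the glial from the neuronal pull-downs most. They are 250 bases each, 5′ to 3′ on the gene's strand, from RefSeq in GRCm38.p6, chr7:24370013-24370262 (+) for Kcnn4 and chr14:20181783-20182032 (-) for Kcnk5. Capitals mark GGGCGG or its reverse complement CCGCCC, the core bound by Sp-family factors.
Kcnn4: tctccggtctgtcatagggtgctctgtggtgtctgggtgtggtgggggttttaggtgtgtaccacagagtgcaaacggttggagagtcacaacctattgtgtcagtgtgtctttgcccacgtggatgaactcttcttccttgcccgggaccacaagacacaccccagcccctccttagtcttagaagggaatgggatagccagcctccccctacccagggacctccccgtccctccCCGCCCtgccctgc
Kcnk5: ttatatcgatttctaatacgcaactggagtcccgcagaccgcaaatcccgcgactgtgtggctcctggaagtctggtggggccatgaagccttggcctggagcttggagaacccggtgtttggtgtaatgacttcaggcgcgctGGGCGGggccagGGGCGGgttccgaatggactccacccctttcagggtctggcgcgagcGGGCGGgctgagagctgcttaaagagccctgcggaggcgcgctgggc
GGGCGG was searched on both strands, as was TGTGGT (the core read by Runx factors), ACAAAG (Sox factors) and CANNTG (the E-box). Kcnn4 held GGGCGG 1 time and TGTGGT 4 times, Kcnk5 held GGGCGG 3 times and TGTGGT 0 times, and each held CANNTG 1 time and ACAAAG 0 times, with 0 overlaps between matches. Of 32851 annotated starts 32.7% held GGGCGG, 14.0% TGTGGT, 16.5% ACAAAG and 66.2% CANNTG in the same window, and of the 90 starts of the 65 members that matched, 42.2%, 10.0%, 8.9% and 67.8%. A match is a description of the letters and no evidence of binding.

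Smaller rises concerned channels present in both kinds of cell. Kcnk2, a mechanically gated two-pore channel, measured 9.30, 12.6 and 13.5 CPM in Isl1 and 32.1 and 37.8 CPM in Dhh (log2 change 1.74 ± 0.17 SE, adjusted p = 1.16e-06). Kcna6 measured 187, 188 and 167 CPM in Isl1 and 465 and 422 CPM in Dhh (log2 change 1.45 ± 0.17 SE, adjusted p = 8.12e-06). Kcnmb4, an accessory subunit of the large-conductance channel opened by calcium, measured 33.1, 24.3 and 28.4 CPM in Isl1 and 72.5 and 70.5 CPM in Dhh (log2 change 1.48 ± 0.15 SE, adjusted p = 2.25e-06). None of these 3 overlapped between the groups of this comparison. The rise of Kcnmb4 was not seen in the naive libraries of the injury series. There it measured 13.0, 14.6 and 14.5 CPM in the Dhh IP and 13.5, 14.9 and 13.8 CPM in the Isl1 IP. Kcna1, at 301, 511 and 483 CPM in Isl1 and 677 and 545 CPM in Dhh, rose by less (log2 change 0.67 ± 0.16 SE, adjusted p = 0.00227). The low-level accessory subunit Kcne1l, with a log2 change of 1.50, and Kcnk3, an acid-sensitive two-pore channel with 0.62, complete the rises, and the libraries of Kcnk3 overlapped.

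Falls covered every subfamily. All 6 silent Kv subunits tested were lower in Dhh, led by Kcng2 at 32.3, 33.0 and 35.5 CPM in Isl1 and 1.69 and 0.944 CPM in Dhh (log2 change -4.52 ± 0.28 SE, adjusted p = 2.37e-08). Of the 17 Kv pore subunits tested, 12 were lower and 2 higher, and of the 8 accessory subunits 7 were lower and 1 higher. Kcnab2 fell from 834, 1277 and 1263 CPM in Isl1 to 94.6 and 64.3 CPM in Dhh (log2 change -3.66 ± 0.24 SE, adjusted p = 4.39e-08). Among channels opened by calcium or sodium 6 of 9 were lower, among them Kcnt1, the sodium-activated channel, with 132, 167 and 153 CPM in Isl1 and 14.8 and 11.2 CPM in Dhh (log2 change -3.38 ± 0.16 SE, adjusted p = 2.77e-09). Two-pore channels divided most evenly, with 3 of 8 higher and only Kcnk12 and Kcnk18, the latter a calcineurin-regulated leak channel of sensory neurons, lower (log2 changes -3.85 and -4.16).

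The 12 neuronal markers had a median log2 change of -4.28 in the same comparison, and 12 of 12 were called lower. Members with falls near that size include Kcng2, Kcns1 (-4.23), Kcnmb1 (-4.25) and Kcnip2 (-4.25), and how much of their remaining Dhh signal came from neuronal RNA was not tested. Among the members not called were Kcnh2, Kcna2, Kcnk1, Kcnk13, Kcnk4 and Kcnn2. Kcna2, the Shaker-type partner of Kcna1, measured 294, 434 and 435 CPM in Isl1 and 429.9 and 316 CPM in Dhh, a log2 change of 0.11 ± 0.18 (SE, adjusted p = 0.565). Kcnh2 measured 119.9, 145 and 139.9 CPM in Isl1 and 143 and 109 CPM in Dhh. Both overlapped between the groups. The naive libraries of the injury series differed from this. There Kcna2 measured 1153, 1184 and 1034 CPM in the Dhh IP, above every naive Isl1 IP library of that series. Kcnh2 measured 23.0, 29.7 and 34.7 CPM in that Dhh IP, under both Dhh libraries given above. The difference between the lines in that series was not tested.

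Of 21 genes for known partners of these channels that were tested, 3 were higher and 18 lower in Dhh. Lgi4, a secreted glial protein needed for peripheral myelination, had a log2 change of 6.76, and Dlg1, a scaffold, 3.28. Dpp10 and Cntnap2, which bind A-type channels and cluster Shaker-type channels beside the node, fell by 4.28 and 4.06 on the log2 scale.

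**Figure D3:**
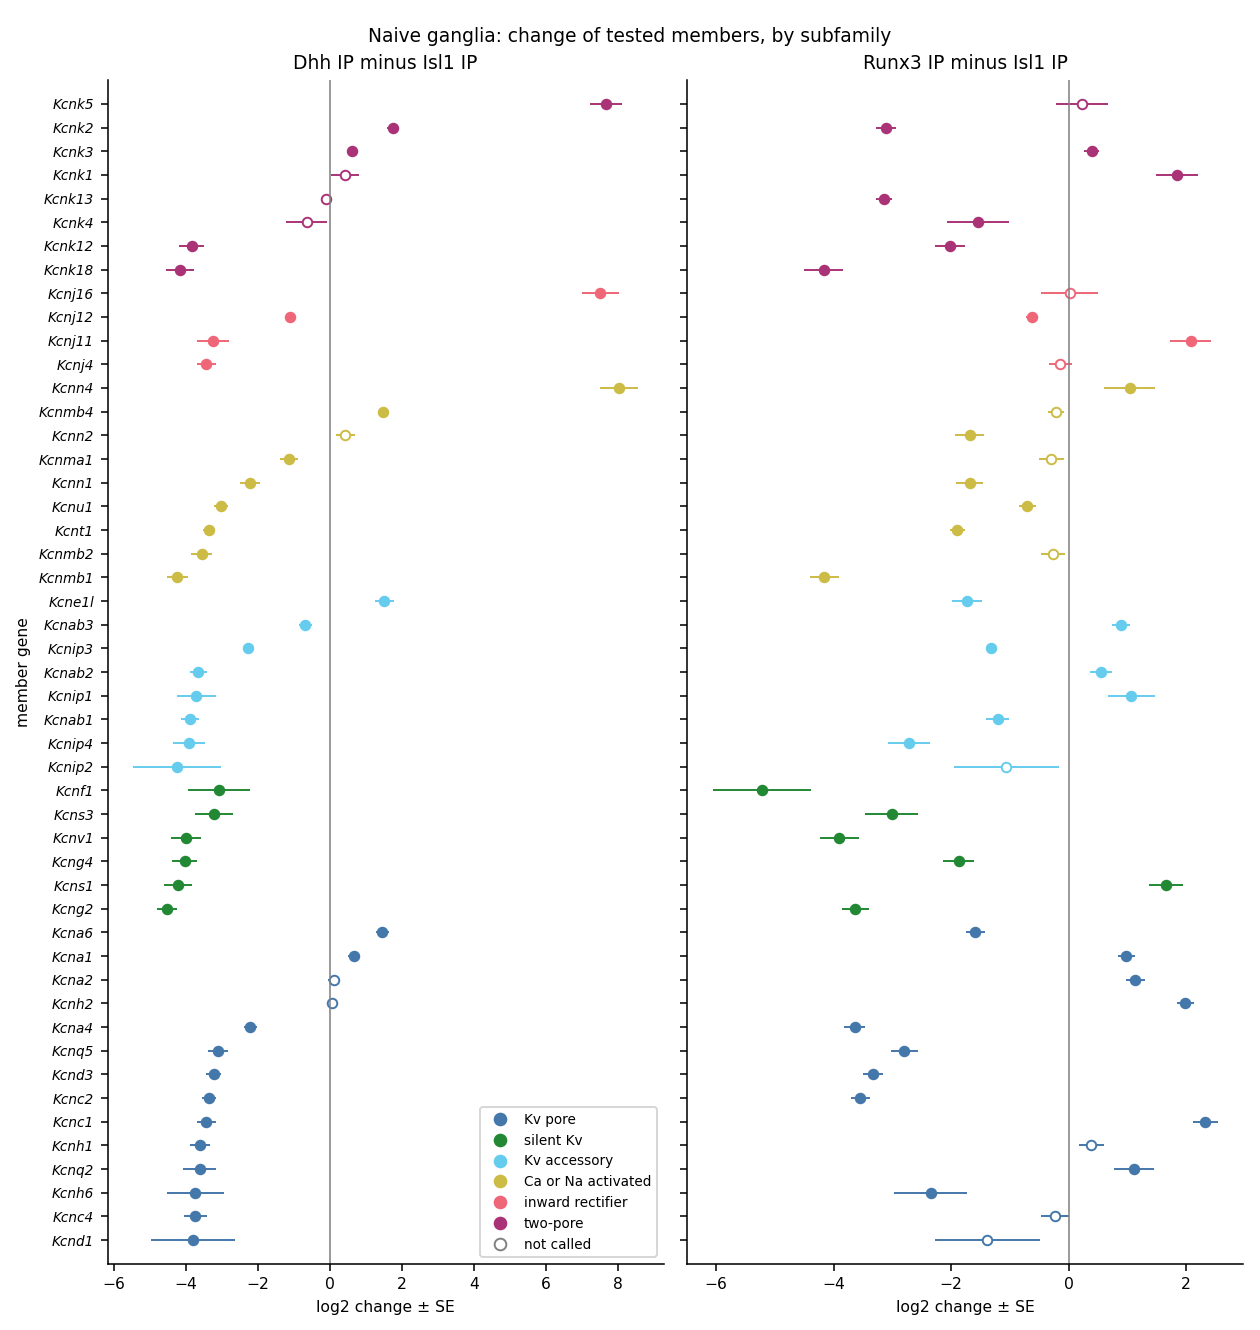
Log2 change with its SE of the tested members that are reported by name, grouped by subfamily, for the Dhh IP against the Isl1 IP and for the Runx3 IP against the Isl1 IP, with open circles for members not called. In the first comparison most members plotted lie below 0, and Kcnn4, Kcnk5 and Kcnj16 stand apart at 8.03, 7.66 and 7.50.

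The Runx3 line asked how proprioceptive neurons differ from sensory neurons at large, which include them. Of the 52 members tested, 42 were called, with 55.3% of all genes. Higher in Runx3 were 14, where 28.0% of all genes were, and lower 28, where 27.3% were. The median log2 change was -1.26 for the members and 0.02 for all genes. Proprioceptor markers summed to 3212 to 4304 CPM in Runx3 and 469 to 563 CPM in Isl1, and nociceptor markers to 266 to 358 and 4631 to 6503 CPM. All 5 neutrophil and all 3 mast cell markers tested were higher in Runx3 too, and their part in these results was not tested.

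The rises were led by a Shaw-type channel. Kcnc1, a Shaw-type pore subunit that repolarises quickly, measured 61.1, 110.3 and 101 CPM in Isl1 and 479.9, 337 and 395 CPM in Runx3, a log2 change of 2.33 ± 0.21 (SE, adjusted p = 2.68e-06). The libraries of the groups did not overlap. Kcnh2 measured 119.9, 145 and 139.9 CPM in Isl1 and 502, 467 and 448 CPM in Runx3 (log2 change 1.99 ± 0.15 SE, adjusted p = 4.96e-07). Kcnj11, the pore of the ATP-sensitive channel, measured 9.47, 17.0 and 17.4 CPM in Isl1 and 63.4, 42.7 and 57.9 CPM in Runx3 (log2 change 2.08 ± 0.35 SE, adjusted p = 0.000354). Kcnk1 measured 65.1, 117 and 116 CPM in Isl1 and 448, 176 and 333 CPM in Runx3 (log2 change 1.84 ± 0.36 SE, adjusted p = 0.00105). In these 3 the Runx3 libraries all lay above the Isl1 libraries.

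The sequence upstream of Kcnc1, the member with the largest rise in Runx3, comes from RefSeq in GRCm38.p6, chr7:46396218-46396467 (+), with the same marks in capitals.
Kcnc1: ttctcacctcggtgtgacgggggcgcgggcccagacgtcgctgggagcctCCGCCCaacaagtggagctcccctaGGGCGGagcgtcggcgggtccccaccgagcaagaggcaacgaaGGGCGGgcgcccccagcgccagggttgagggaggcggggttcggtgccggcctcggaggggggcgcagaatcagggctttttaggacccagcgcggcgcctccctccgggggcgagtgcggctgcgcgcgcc
It held GGGCGG 3 times, CANNTG 1 time, TGTGGT 0 times and ACAAAG 0 times, and its GC content was 74.4% beside a median of 52.4% over all starts and 58.2% over those of the members.

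Kcns1, a silent subunit whose variants have been linked to pain in people, was the only silent Kv subunit to rise, from 62.9, 115 and 114 CPM in Isl1 to 357, 177 and 288 CPM in Runx3 (log2 change 1.66 ± 0.29 SE, adjusted p = 0.000503). The other 5 tested fell, Kcnf1 from 6.71, 41.2 and 38.0 CPM in Isl1 to 0.476, 1.12 and 0.410 CPM in Runx3 (log2 change -5.23 ± 0.84 SE, adjusted p = 0.000272) and Kcng2 from 32.3, 33.0 and 35.5 CPM in Isl1 to 2.77, 2.31 and 2.14 CPM in Runx3 (log2 change -3.63 ± 0.22 SE, adjusted p = 1.25e-07). For these 3 silent subunits each Runx3 library stood apart from each Isl1 library.

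The Shaker-type subunits shifted against each other. Kcna1 rose from 301, 511 and 483 CPM in Isl1 to 776, 695 and 789 CPM in Runx3 (log2 change 0.99 ± 0.15 SE, adjusted p = 0.000164) and Kcna2 from 294, 434 and 435 CPM in Isl1 to 825, 697 and 738 CPM in Runx3 (log2 change 1.14 ± 0.16 SE, adjusted p = 9.85e-05). Kcna4, the fast-inactivating member, fell from 23.4, 30.1 and 30.0 CPM in Isl1 to 1.84, 2.28 and 1.77 CPM in Runx3 (log2 change -3.64 ± 0.17 SE, adjusted p = 2.09e-08), and Kcna6 from 187, 188 and 167 CPM in Isl1 to 61.1, 49.1 and 50.5 CPM in Runx3 (log2 change -1.59 ± 0.16 SE, adjusted p = 7.3e-06). No libraries overlapped in these 4. Of all counts in Kcna genes, Kcna6 took 3.2 to 3.7% in Runx3 and 14.9 to 23.2% in Isl1.

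A-type and calcium-activated members were among the deepest falls. Kcnd3, an A-type pore subunit, measured 108, 192 and 149 CPM in Isl1 and 13.3, 13.2 and 12.7 CPM in Runx3 (log2 change -3.33 ± 0.18 SE, adjusted p = 4.06e-08). Kcnmb1, an accessory subunit of the large-conductance channel, measured 63.5, 85.4 and 85.9 CPM in Isl1 and 3.89, 3.23 and 4.51 CPM in Runx3 (log2 change -4.16 ± 0.25 SE, adjusted p = 9.64e-08). Kcnk18 measured 5.47, 8.99 and 10.5 CPM in Isl1 and 0.498, 0.259 and 0.454 CPM in Runx3 (log2 change -4.17 ± 0.33 SE, adjusted p = 9.36e-07). The Runx3 libraries of all 3 lay well under every Isl1 library. Falls of 3 or more on the log2 scale also came from members that include Kcnv1, Kcnc2, Kcnk13, Kcnk2 and Kcns3. Kcnj16 and Kcnk5 were not called between these neuronal lines, with log2 changes of 0.02 ± 0.49 (SE, adjusted p = 0.976) for Kcnj16 and 0.23 ± 0.44 (SE, adjusted p = 0.697) for Kcnk5. Kcnn4 was called higher at 1.04 ± 0.43 (SE, adjusted p = 0.0663), on 2.36, 1.53 and 3.05 CPM in Runx3, but against the Adv IP in place of Isl1 its log2 change was -0.34.

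Partners were tested for 21 genes, of which 7 were higher and 4 lower. Cntnap2, which clusters Shaker-type channels, had a log2 change of 1.73, and Abcc8, the sulfonylurea receptor that pairs with Kcnj11, 1.07. Lgi1, a secreted protein that regulates Shaker-type channels at synapses, fell by 1.32 on the log2 scale.

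The Isl1 and Adv lines both tag sensory neurons at large. By edgeR 0 of the 52 members were called, as were 0.0% of all genes, while 9 members had an unadjusted p under 0.05 and DESeq2 called 2. The median log2 change of the members was 0.27, beside -0.01 for all genes. Kcna1 measured 301, 511 and 483 CPM in Isl1 and 349, 297 and 306 CPM in Adv, with overlap between the groups. The lines also differ in strain and in the number of tagged alleles, which cannot be told apart from the driver here.

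Against PGK, 11 of 52 members were called, with 20.1% of all genes, 7 higher in Isl1 (4.76% of all genes) and 4 lower (15.4%). With DESeq2 size factors the members divided into 11 higher and 4 lower, and of the genes called 36.7% were higher in place of 23.6%. Lower in Isl1 were the Dhh-enriched members, which were chosen on the same Isl1 IP libraries, so this is no separate support for them. Kcnk5 measured 8.10, 7.67 and 9.36 CPM in the PGK IP (log2 change -4.73 ± 0.40 SE, adjusted p = 1.72e-05), Kcnn4 32.7, 30.9 and 27.9 CPM (log2 change -4.56 ± 0.45 SE, adjusted p = 3.33e-05) and Kcnj16 7.55, 6.98 and 6.43 CPM (log2 change -3.96 ± 0.45 SE, adjusted p = 6.57e-05). All PGK libraries stood above all Isl1 libraries and under all Dhh libraries for these 3. The fourth was Kcnk2, at -0.47 ± 0.15 (SE, adjusted p = 0.0596), with overlapping libraries. Higher in Isl1 were Kcnq5, an M-type pore subunit (0.80 ± 0.22 SE, adjusted p = 0.0241), and Kcnip3 (0.36 ± 0.09 SE, adjusted p = 0.0174), without overlap, and Kcnn1, Kcnmb1, Kcnab1, Kcnj12 and Kcnk13 with it. PGK animals differ in strain as well as driver. The count was 17 without the first Isl1 library, 6 without the second, 6 without the third, 6 without the first PGK library and 7 without its second.

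The pull-downs were then set against their own lysates, of which input was a part, in fits that did not pair them. In the Dhh line 46 of 51 members were called, 11 higher and 35 lower in the IP, with 85.2% of all genes called, 44.0% higher and 41.2% lower. Kcnj16 measured 5.88, 3.94 and 3.84 CPM in the Dhh input against 76.1 and 66.1 CPM in the IP (log2 change 4.10 ± 0.36 SE, adjusted p = 4.42e-10). Kcnn4 and Kcnk5 rose too, by 3.63 and 3.16 on the log2 scale. The Dhh IP libraries are the ones on which these members were chosen, so their rises here are no separate support.

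In the Runx3 line 45 of 51 were called, 15 higher and 30 lower, with 73.3% of all genes called, 35.9% higher and 37.4% lower. The rises included Kcnc1 (2.95), Kcnj11 (2.77), Kcnk1 (2.68) and Kcns1 (1.98) as log2 changes. Kcnc1 measured 77.6, 55.3 and 49.6 CPM in the Runx3 input and 479.9, 337 and 395 CPM in the IP, without overlap. This comparison shares its IP libraries with the one against Isl1.

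Neuronal lines at large changed fewer members. In Adv 19 of 51 were called, 12 higher and 7 lower, with 47.6% of all genes called, 22.4% higher and 25.2% lower. In Isl1 9 were called, 5 higher and 4 lower, with 31.5% of all genes, 12.0% higher and 19.5% lower. With each IP blocked on its own lysate, a setting whose share of all genes is not given, the Isl1 count was 21, 16 higher and 5 lower. Without the first Isl1 IP library it was 14, 10 higher and 4 lower. It was 3 without the second, 5 without the third and 5 without the first input library, all lower, so that none of the 5 rises, Kcnn1 among them, was called there. Kcnn1, a small-conductance channel opened by calcium, was the largest rise in both lines, with log2 changes of 0.59 ± 0.22 (SE, adjusted p = 0.0493) in Isl1 and 1.02 ± 0.22 (SE, adjusted p = 0.000787) in Adv. Kcnk5, Kcnn4 and Kcnj16 fell by 4.05, 3.88 and 3.22 on the log2 scale in Isl1. In Adv they fell by 3.42, 2.76 and 2.94. The Isl1 IP libraries, unlike those of Adv, are ones on which these members were chosen.

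In the PGK line, where the driver is ubiquitous, 3 of 51 were called and all were lower in the IP, with 18.9% of all genes called, 8.62% higher and 10.3% lower. They were Kcnmb1 (-0.56 ± 0.17 SE, adjusted p = 0.0363), Kcnmb4 (-0.37 ± 0.12 SE, adjusted p = 0.0493) and Kcnab3 (-0.35 ± 0.13 SE, adjusted p = 0.0914) as log2 changes. Blocked on the lysate, 14 were called, 7 in each direction, with no share of all genes given for that setting. The count was 0 without the first IP library, 5 without the second and 1 without the first input library.

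What the pull-down left behind differed little from the lysate. Over the 5 lines, 11 of 52 members differed between supernatant and input, 9 higher and 2 lower, with 20.6% of all genes called, 10.5% higher and 10.0% lower. The rises included Kcng4, a silent Kv subunit, at 0.35 ± 0.10 (SE, adjusted p = 0.0246) on the log2 scale, and the falls were Kcnmb1 at -0.28 ± 0.09 (SE, adjusted p = 0.0334) and Kcnab1 at -0.25 ± 0.06 (SE, adjusted p = 0.0126). With the lysate as a block 22 were called, 17 higher and 5 lower, with no share of all genes given for that setting.

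After sciatic nerve injury, members were called in the neuronal pull-down at 24 h, and the difference between times was not tested. In the Isl1 IP 0 of 55 members were called by edgeR at 4 h, with 3.05% of all genes (0.628% higher and 2.42% lower), and 0 at 12 h, with 5.05% (2.28% and 2.77%). At an unadjusted p under 0.05 there were 3 and 6 members, and DESeq2 called 0 and 2. At 24 h 15 were called, with 18.5% of all genes. Lower were 12 members, where 7.34% of all genes were, and higher 3, where 11.2% were. The median log2 change was -0.11 for the members and -0.01 for all genes. All times share the same naive libraries.

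The 24 h falls came 2 from each subfamily. Kcnk2 measured 11.2, 9.17 and 13.7 CPM naive and 5.74, 7.19 and 7.48 CPM at 24 h (log2 change -0.71 ± 0.21 SE, adjusted p = 0.043). Kcnn2, a small-conductance channel opened by calcium that shapes the afterhyperpolarisation, measured 13.6, 13.0 and 15.1 CPM naive and 7.72, 10.8 and 8.63 CPM at 24 h (log2 change -0.59 ± 0.12 SE, adjusted p = 0.00554). Kcnj3, a G protein-gated inward rectifier, measured 19.8, 16.9 and 14.7 CPM naive and 10.5, 13.7 and 11.7 CPM at 24 h (log2 change -0.49 ± 0.13 SE, adjusted p = 0.0265). No library at 24 h reached a naive one in these 3, though the gap was narrow for each.

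Falls among more abundant members were smaller and tighter. Kcns3, a silent subunit, measured 79.7, 78.4 and 85.3 CPM naive and 55.9, 67.7 and 58.4 CPM at 24 h (log2 change -0.39 ± 0.09 SE, adjusted p = 0.0111). Kcna4 measured 30.6, 28.4 and 31.0 CPM naive and 20.8, 22.8 and 25.4 CPM at 24 h (log2 change -0.36 ± 0.08 SE, adjusted p = 0.0129). Kcnj12, a strong inward rectifier, measured 59.9, 62.5 and 62.0 CPM naive and 48.8, 51.9 and 51.1 CPM at 24 h (log2 change -0.25 ± 0.05 SE, adjusted p = 0.00709). Again the groups did not overlap. Kcnip2 had a log2 change of -0.37 ± 0.10 (SE, adjusted p = 0.0224), Kcnk18 -0.42 ± 0.13 (SE, adjusted p = 0.0516) and Kcnmb2 -0.55 ± 0.18 (SE, adjusted p = 0.0593). Kcnip1, Kcns1 and Kcna6 completed the falls, at -0.29, -0.21 and -0.17 on the log2 scale.

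Kcnmb4 was the largest of the rises, from 13.5, 14.9 and 13.8 CPM naive to 19.9, 16.2 and 18.3 CPM at 24 h (log2 change 0.39 ± 0.09 SE, adjusted p = 0.0127), without overlap. Kcnip4 and Kcnn1 followed at 0.20 ± 0.07 (SE, adjusted p = 0.0917) and 0.18 ± 0.06 (SE, adjusted p = 0.0875), and the libraries of Kcnip4 overlapped. Kcna1 was not called, at 696, 712 and 639 CPM naive and 606, 749 and 689.9 CPM at 24 h (log2 change 0.03 ± 0.08 SE, adjusted p = 0.876). Under every alternative and with each library left out, 6 calls remained, those of Kcna4, Kcnip2, Kcnj12, Kcnmb4, Kcnn2 and Kcns3. The count was 26 without the second 24 h library, 9 without the first naive library and 8 without the third. The median log2 change of the 12 neuronal markers at 24 h was -0.03.

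**Figure D4:**
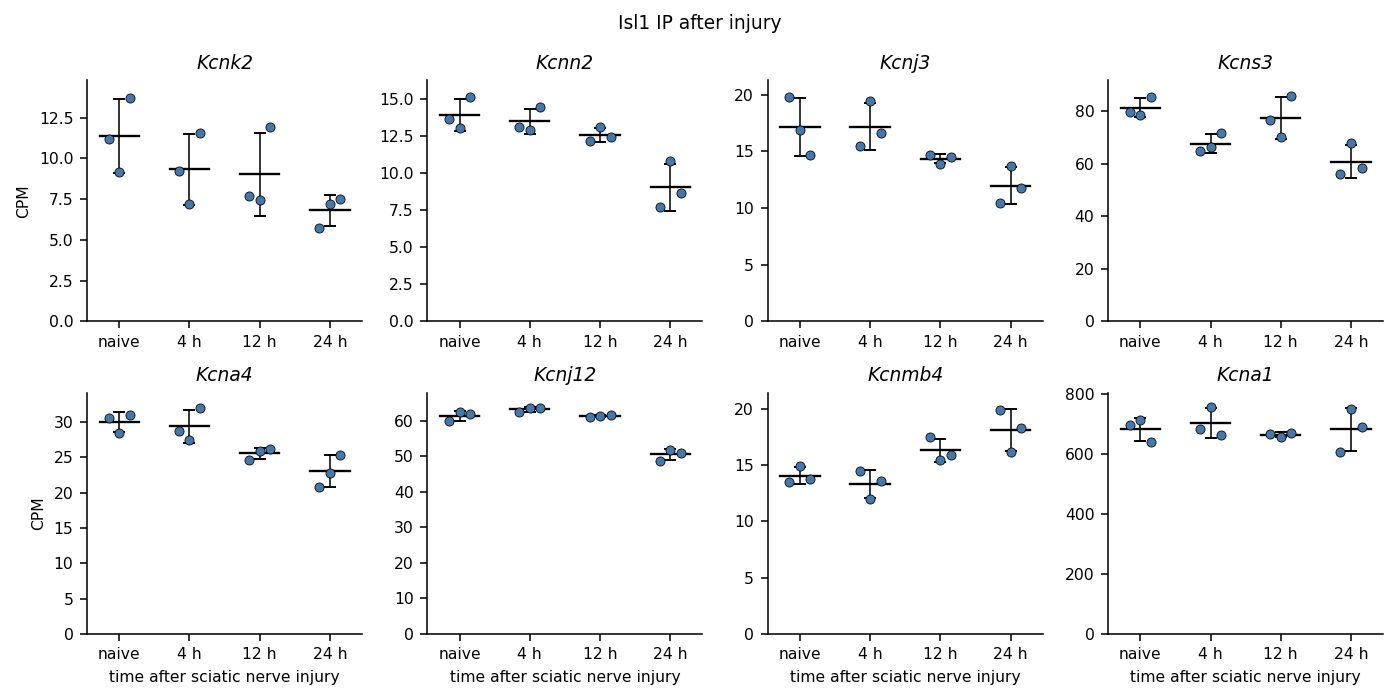
CPM of 8 members in the Isl1 IP of naive lumbar ganglia and at 4, 12 and 24 h after sciatic nerve injury, a point for each library, a bar at the mean and whiskers of 1 SD (n = 3). Kcnj12 stands at 59.9 to 62.5 CPM in naive and at 48.8 to 51.9 CPM at 24 h, while Kcna1 overlaps.

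The lysate of the same line had calls at each time. Of 62 members tested in the Isl1 input, 1 was called at 4 h, 3 at 12 h and 4 at 24 h, all lower, with 1.28%, 4.48% and 8.42% of all genes called. By direction 0.76%, 2.26% and 2.75% of all genes were lower and 0.523%, 2.22% and 5.67% higher. At 4 h it was Kcnj2, a strong inward rectifier, with 5.37, 9.02 and 5.82 CPM naive and 2.64 and 2.76 CPM at 4 h (log2 change -1.27 ± 0.24 SE, adjusted p = 0.0428). No call was left at 4 h without either 4 h library or without the second naive library. The direction of the calls also depended on the fit. With only the compared groups fitted, 8 members were called at 4 h, 6 higher and 2 lower, without Kcnj2, and 9 at 12 h, 4 higher and 5 lower.

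At 12 h the calls in the input were the Dhh-enriched members. Kcnj16 measured 9.25, 10.2 and 9.17 CPM naive and 3.70 and 1.83 CPM at 12 h (log2 change -1.73 ± 0.29 SE, adjusted p = 0.0215). Kcnn4 measured 17.8, 14.5 and 16.2 CPM naive and 9.02 and 7.51 CPM at 12 h (log2 change -0.92 ± 0.24 SE, adjusted p = 0.0831), and Kcnk5 5.72, 6.67 and 5.64 CPM naive and 3.39 and 3.65 CPM at 12 h (log2 change -0.72 ± 0.20 SE, adjusted p = 0.0881). None overlapped. The satellite glia markers summed to 3449.6 to 3841 CPM in the naive input and 3326 to 3337 CPM at 12 h. The count was 0 without the third 12 h library and 1 without the second 12 h library or any naive library.

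At 24 h they were Kcnn2 (-0.67 ± 0.15 SE, adjusted p = 0.031), Kcna4 (-0.47 ± 0.10 SE, adjusted p = 0.0201), Kcnj3 (-0.43 ± 0.10 SE, adjusted p = 0.0327) and Kcnip2 (-0.30 ± 0.09 SE, adjusted p = 0.0807). Each was also called lower in the IP at 24 h. Without the third 24 h library 10 members were called, and without the third naive library 1. The difference between the IP response and the input response was tested for 55 members, and by edgeR 0 differed at 4, 12 or 24 h, with 0.0265%, 0.0177% and 0.0% of all genes. There were 1, 1 and 0 members at an unadjusted p under 0.05, DESeq2 called 0 each time, and with the lysate as a block 1 was called at 4 h and 1 at 12 h.

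Genes known to repress channel transcription after nerve injury were read beside the members. Dnmt3a, a DNA methyltransferase, was lower at 4 h in the IP (log2 change -0.51 ± 0.09 SE, adjusted p = 0.00802) and in the input (-0.44 ± 0.10 SE, adjusted p = 0.0883). At 24 h Mbd1, Dnmt3a and Ehmt2 had log2 changes of -0.13 ± 0.19 (SE, adjusted p = 0.716), -0.06 ± 0.09 (SE, adjusted p = 0.718) and 0.02 ± 0.06 (SE, adjusted p = 0.866) in the IP and were not called. Of 23 partner genes tested at 24 h, Lgi4 was higher (0.57) and Dlg4, a synaptic scaffold that binds Shaker-type channels, lower (-0.16) in log2 change. In the Dhh IP at 24 h Lgi4 was called higher too (0.88 ± 0.15 SE, adjusted p = 0.00661), and Dlg4 was not called. The part of glial RNA in the rise of Lgi4 in the Isl1 IP was not tested.

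In the glial pull-down members were called at 12 h, and here too the difference between times was not tested. In the Dhh IP 0 of 38 members were called by edgeR at 4 h and 0 at 24 h, with 1.15% (0.527% higher, 0.618% lower) and 2.68% (1.23% higher, 1.45% lower) of all genes. There were 5 and 7 at an unadjusted p under 0.05 and 1 at each time by DESeq2. At 12 h 15 were called, with 32.9% of all genes, 7 higher (17.3% of all genes) and 8 lower (15.6%). The median log2 change was 0.21 for the members and -0.02 for all genes. Without the first naive library 9 were called at 12 h.

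Kcna1 showed the largest change of the abundant members. It measured 1278, 1755 and 1347 CPM in the naive libraries, 1962, 1759 and 1656 CPM at 4 h, 4334, 3813 and 3663 CPM at 12 h and 2030.2 and 1831 CPM at 24 h. The 12 h libraries all lay above every other library, and those at 24 h were back beside those at 4 h. The log2 change at 12 h was 1.61 ± 0.13 (SE, adjusted p = 1.08e-06). Of all counts in Kcna genes, Kcna1 took 44.9 to 53.1% in naive libraries and 76.0 to 78.3% at 12 h. Kcna6 measured 409, 360.4 and 355 CPM naive and 426, 369 and 454 CPM at 12 h and was not called (log2 change 0.34 ± 0.15 SE, adjusted p = 0.103), and Kcna2 fell (log2 change -0.38 ± 0.14 SE, adjusted p = 0.0592).

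Neuronal markers were higher at 12 h as well. The 12 genes summed to 1051 to 1259 CPM in naive and 1274 to 1397 CPM at 12 h, 9 of 12 were called higher, none was at 0, and their median log2 change was 0.51. Satellite glia markers summed to 14777 to 17781 CPM naive and 12431 to 13904 CPM at 12 h. The part of neuronal RNA in the rises at 12 h, that of Kcna1 included, was not tested.

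Kcnk1 rose from 151, 143 and 91.7 CPM naive to 232, 234 and 178 CPM at 12 h (log2 change 0.92 ± 0.19 SE, adjusted p = 0.00228) and Kcnd3 from 27.6, 19.8 and 34.6 CPM naive to 34.8, 37.0 and 41.2 CPM at 12 h (log2 change 0.65 ± 0.23 SE, adjusted p = 0.0472), both without overlap. The rises of Kcnc1, Kcnj12, Kcns3 and Kcnrg, a regulator that interferes with Kv channel assembly, at 0.77, 0.72, 0.71 and 1.62 in log2 change, came with overlapping libraries.

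The members that marked glia in the naive comparison were lower at 12 h. Kcnj16 measured 329.6, 356 and 449 CPM naive and 89.7, 91.2 and 191 CPM at 12 h (log2 change -1.40 ± 0.25 SE, adjusted p = 0.000948). Kcnn4 measured 116, 103 and 90.2 CPM naive and 42.2, 33.7 and 48.1 CPM at 12 h (log2 change -1.12 ± 0.16 SE, adjusted p = 0.000158), and Kcnk5 27.0, 23.6 and 25.0 CPM naive and 12.8, 15.2 and 11.8 CPM at 12 h (log2 change -0.74 ± 0.17 SE, adjusted p = 0.00562). The 12 h libraries lay below every naive library in all 3. At 24 h they measured 249 and 252 CPM for Kcnj16, 110.1 and 137 CPM for Kcnn4 and 17.8 and 16.2 CPM for Kcnk5, none of them called.

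Kcnk2 fell from 37.0, 27.3 and 42.9 CPM naive to 13.6, 12.5 and 21.1 CPM at 12 h (log2 change -0.98 ± 0.25 SE, adjusted p = 0.00979) and Kcnmb4 from 13.0, 14.6 and 14.5 CPM naive to 7.44, 5.83 and 8.15 CPM at 12 h (log2 change -0.78 ± 0.21 SE, adjusted p = 0.0127). Neither overlapped. Kcnn2 and Kcnip3 were lower by smaller margins, at log2 changes of -0.77 ± 0.29 (SE, adjusted p = 0.0668) and -0.54 ± 0.22 (SE, adjusted p = 0.0787). Under every alternative and with each library left out, 7 of the 15 calls remained, those of Kcna1, Kcnj16, Kcnk1, Kcnk2, Kcnk5, Kcnmb4 and Kcnn4. Of the repressors, Mbd1, a protein that binds methylated DNA, and Rest, a repressor of neuronal genes, were higher at 12 h, at log2 changes of 1.41 ± 0.27 (SE, adjusted p = 0.0015) and 0.43 ± 0.16 (SE, adjusted p = 0.0548). Ehmt2, a histone methyltransferase, and Dnmt3a were not called, at -0.35 ± 0.18 (SE, adjusted p = 0.184) and -0.11 ± 0.17 (SE, adjusted p = 0.695). Of 19 partner genes 4 were higher, among them Lrrc52, an auxiliary subunit of large-conductance channels, at 4.37, and Vapb alone was lower, at -0.58. Lrrc52 had a mean of 0.186 CPM naive and 3.40 CPM at 12 h, so its change rests on low values.

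**Figure D5:**
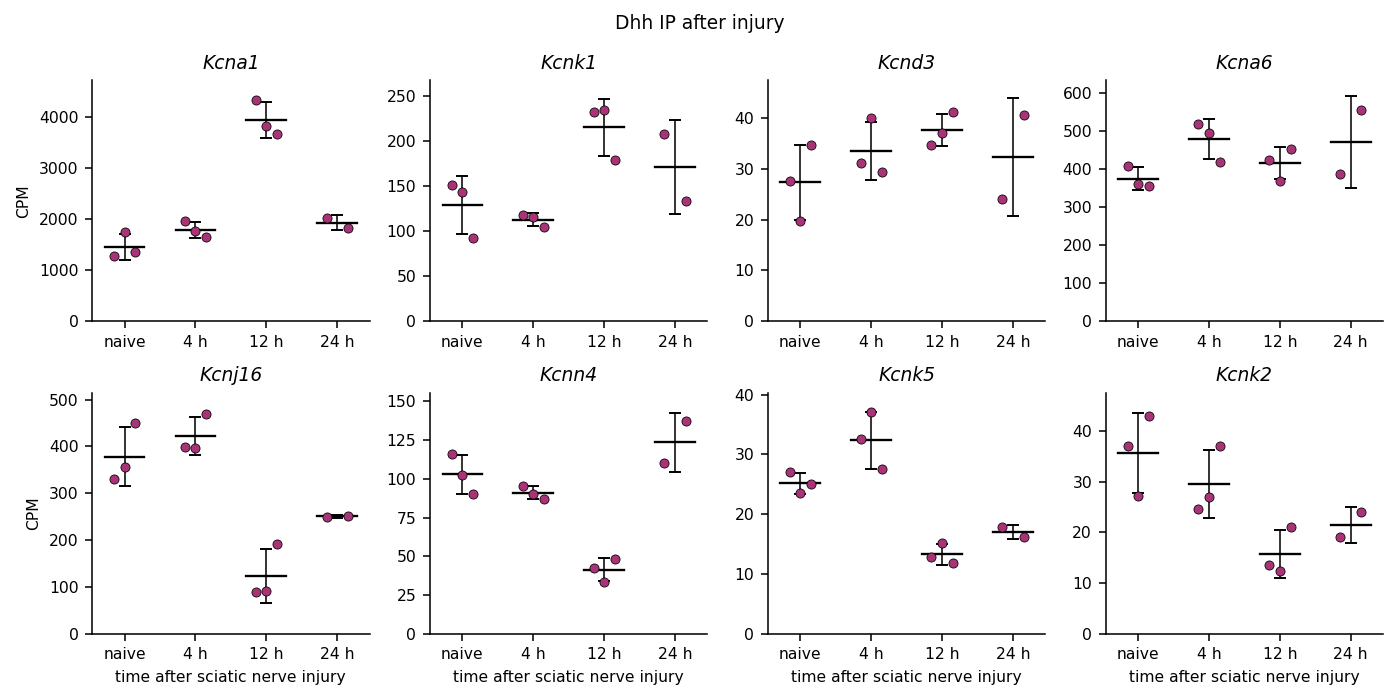
CPM of 8 members in the Dhh IP of naive lumbar ganglia and at 4, 12 and 24 h after sciatic nerve injury, a point for each library, a bar at the mean and whiskers of 1 SD (n = 3, and 2 at 24 h). Kcna1 stands at 3663 to 4334 CPM at 12 h and at 1278 to 1755 CPM in naive, and Kcnj16 is lowest at 12 h.

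Whether neurons and glia responded differently was tested as the difference of the log2 changes, on 35 members. At 4 h 0 were called by edgeR, with 0.916% of all genes, 4 members at an unadjusted p under 0.05 and 2 called by DESeq2. At 12 h 8 were called, with 25.7% of all genes, 2 higher in the Isl1 response (12.9% of all genes) and 6 lower (12.9%). With DESeq2 size factors 1 was higher and 8 lower, and 39.3% of the genes called were higher in place of 50.0%. For Kcna1 the difference was -1.61 ± 0.16 (SE, adjusted p = 1.03e-06), with Isl1 IP libraries at 696, 712 and 639 CPM naive and 667, 656 and 669 CPM at 12 h. Kcnmb4 differed by 1.03 ± 0.21 (SE, adjusted p = 0.00168), since it fell in the Dhh IP and measured 13.5, 14.9 and 13.8 and 17.5, 15.5 and 15.9 CPM in the Isl1 IP. The count at 12 h was 5 without the first or second Isl1 12 h library or the first Isl1 naive library and 4 without the third Isl1 naive library.

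At 24 h 2 were called, with 2.95% of all genes, both lower in the Isl1 response (1.13% of all genes). Kcnip2 measured 239, 227 and 238 CPM naive and 209, 170.4 and 155 CPM at 24 h in the Isl1 IP and 4.87, 4.28 and 6.75 CPM naive and 8.35 and 9.59 CPM at 24 h in the Dhh IP. The libraries of Isl1 were lower at 24 h than naive. Kcnip2 differed by -1.12 ± 0.26 (SE, adjusted p = 0.0265) and Kcnh1, an EAG-type pore subunit under the filter in the Dhh table alone, by -1.48 ± 0.41 (SE, adjusted p = 0.0696). The count at 24 h was 1 without the first 24 h library of Isl1, without the third, or without any Isl1 naive library or the first Dhh naive library. It was 4 without the first Dhh 24 h library or the second Dhh naive library.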

How the data were processed

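RNA was depleted of ribosomal RNA (Ribo-Zero Gold), amplified with the Ovation system and sequenced in paired ends on a HiSeq. The authors aligned reads with STAR to mm10 and counted them per refFlat gene with HTSeq, and the deposited values are raw counts. The submitters' processing notes name CASAVA 1.8.2, edgeR and the builds mm9 and mm10. Strand use in counting: not given in the sources used here. Deposited columns of the authors' own comparisons were not used. Of 77 labelled samples 76 have a count column, and naive Dhh IP replicate 2 was not analysed here.

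Libraries of one group differed beyond sampling noise in all 71 pairs (chi-square per gene 5.51 to 311). Gene symbols altered into dates were restored where the match was unique (up to 22 a table). CPM is the count over the library total, and FPKM divides by GENCODE transcript length. Genes with a mean above 1 FPKM were tested with edgeR 4.0.16 (TMM, quasi-likelihood F test) in R 4.3.3, in a fit of all groups of the table or tables, with Benjamini-Hochberg adjustment over all genes and a threshold of 0.1. The SE is the log2 change over the square root of F. Tests were checked on counts simulated with known changes. That simulation gave every gene the same dispersion and held no deviations of single libraries. It checks the fitting and cannot show how reliable the calls are in these data. Depth was 29710143 to 54088821 counts a library.

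IP or supernatant and input of one lysate are pairs, as input was taken from each lysate. The main fits left this pairing out, and the lysate entered only as a block in the alternatives. Correlations of their deviations from the group means were -0.12 to 0.84 (median 0.47) for naive IP, -0.12 to 0.90 (median 0.71) for supernatant and 0.23 to 0.71 (median 0.45) after injury. Alternatives were DESeq2 1.42.0, its size factors, no filter, a replicate block, only the compared groups, the Adv IP as reference, each library left out, and, chosen after seeing the data, the second libraries left out. Members named were the 12 largest rises and falls called in each comparison (6 for differences of responses) with a mean count of at least 50 and no overlap between groups, the 3 highest of each subfamily in Isl1 and Dhh, and members well known in sensory neurons or glia, and others where a count of calls needed them. Some members enter the counts, but their own results are not reported here. The members and lists were chosen with earlier results of these data known.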

Additional observations from a re-analysis of the deposited data

Results flagged for a closer look

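The members below are given because the response of the Isl1 IP differed from that of the Dhh IP by the test of the difference itself (edgeR, adjusted over all genes). Values are the log2 change in the Isl1 IP minus that in the Dhh IP. At 12 h the difference was -1.83 ± 0.39 (SE, adjusted p = 0.00229) for Kcnh1, -1.61 ± 0.16 (SE, adjusted p = 1.03e-06) for Kcna1, -0.90 ± 0.21 (SE, adjusted p = 0.00494) for Kcnk1, -0.74 ± 0.26 (SE, adjusted p = 0.0519) for Kcns3, -0.68 ± 0.26 (SE, adjusted p = 0.0751) for Kcnj12 and -0.45 ± 0.17 (SE, adjusted p = 0.0689) for Kcna6. These were lower in the neuronal response. It was 0.64 ± 0.25 (SE, adjusted p = 0.0739) for Kcnip3 and 1.03 ± 0.21 (SE, adjusted p = 0.00168) for Kcnmb4, which were higher in it. At 24 h the difference was -1.48 ± 0.41 (SE, adjusted p = 0.0696) for Kcnh1 and -1.12 ± 0.26 (SE, adjusted p = 0.0265) for Kcnip2. Kcnh1 measured 66.0 to 70.9 CPM naive and 56.5 to 60.2 CPM at 12 h in the Isl1 IP, and 2.54 to 4.66 and 5.22 to 14.4 CPM in the Dhh IP. Its mean in the Dhh IP, 0.992 FPKM, was under the filter, and its own change there was not tested. It entered the test of the difference through its level in the Isl1 IP, so its result rests on low Dhh values. Kcnk1 measured 87.3 to 102 and 89.3 to 93.6 CPM in the Isl1 IP, and it rose in the Dhh IP.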

How the results depend on the processing

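Single members gave 6790 values under alternatives other than leaving out a library. Of these, 6553 kept their side of the threshold, 156 crossed it to become calls and 80 lost a call. A change of direction was counted only where the member was called in the main fit or in the alternative. There was 1, Kcnn4 between Runx3 and Isl1 (-0.34 with the Adv IP as the reference). Members called in neither fit may have changed direction without being counted. Of 9832 values with a library left out, 9445 kept their side, 123 became calls, 264 lost one and 0 changed direction by the same count.

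Counts of members called moved as follows. The share of all genes called in the same setting is not given beside them. A move of the members therefore cannot be told apart from a general rise or fall in calls. Without the filter on low values they were 73 for Dhh against Isl1 IP, 22 for Isl1 IP against input and 76 for Dhh IP against input, since more genes were tested. With the DESeq2 Wald test they were 2 for Isl1 against Adv, 20 for Isl1 against PGK, 6 for PGK IP against input, 2 for Isl1 IP at 12 h, 2 for Isl1 input at 4 h, 1 for Dhh IP at 4 h, 1 at 24 h, and 2 for the difference of Isl1 and Dhh responses at 4 h. With only the compared groups in the fit they were 4 for Isl1 against PGK, 0 for PGK IP against input, 3 and 5 for Isl1 IP at 4 and 12 h, 8 and 9 for Isl1 input at 4 and 12 h, 2 and 1 for Dhh IP at 4 and 24 h, and 2 and 5 for the difference of Isl1 and Dhh responses at 4 and 12 h. The cause was not tested.

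With the replicate block counts were 21 for Isl1 IP against input, 14 for PGK IP against input, 22 for supernatant against input, 1 and 1 for the difference of the Isl1 IP and input responses at 4 and 12 h, 0 and 2 for Isl1 input at 12 and 24 h, 1 for Dhh IP at 24 h and 1 for the difference of Isl1 and Dhh responses at 4 h. The block moved no other count by over 1.5 times. Apart from pairs of one lysate, no labels tie libraries of one number. Between the Isl1 IP and the Adv, PGK and Runx3 IP, same-numbered libraries correlated at -0.73 to 0.57 in their deviations, and with the 2 Dhh IP libraries at 0.15 and 0.26, but some lines not compared with each other deviated together, such as Adv and PGK IP (0.38 to 0.63) and PGK and Runx3 IP (0.37 to 0.84). With the second libraries of every line left out, a setting chosen after seeing the data, counts were 4 for Isl1 against PGK, 4 for Isl1 IP against input, 1 for PGK IP against input and 5 for supernatant against input.

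Leaving out a library in turn gave 45 to 46 for Dhh against Isl1, 39 to 43 for Runx3 against Isl1, 0 for Isl1 against Adv, and 6 to 17 for Isl1 against PGK. For IP against input it gave 3 to 14 in Isl1, 14 to 19 in Adv, 43 to 47 in Runx3, 43 to 48 in Dhh and 0 to 5 in PGK, and for supernatant against input 8 to 15. After injury it gave 0, 0 and 8 to 26 for Isl1 IP at 4, 12 and 24 h, 0 to 1, 0 to 1 and 1 to 10 for Isl1 input, and 0, 9 to 14 and 0 to 1 for Dhh IP. The difference of Isl1 and Dhh responses gave 0 to 1, 4 to 10 and 1 to 4, and that of Isl1 IP and input 0 each time. Where 2 libraries were left in a group and 1 was dropped, the lone library was assumed to vary like the other groups.

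Precision is limited by groups of 2 or 3 libraries. Strand use in counting is not given, so overlapping or antisense genes cannot be separated from members, and small groups leave modest changes of low members below detection.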
